A study of Homo sapiens with 6 samples.

Results

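A set of 9 genes of MHC class I antigen presentation was followed in human leukemia cells in which the transcription factor gene ZFX had been silenced. They were the heavy chain genes HLA-B, HLA-C and HLA-E, the light chain gene B2M, the peptide transporter genes TAP1 and TAP2, the tapasin gene TAPBP, and the regulators NLRC5 and CIITA. All probe sets annotated to these symbols were taken, which gave 25 of the 54675 probe sets on the array and 9 of the 19775 genes that had a probe set of their own. In the annotation used, 0 of the 25 were shared with another gene symbol. However, 9 of them, among them all 7 of HLA-B and HLA-C, have names ending in x_at, which marks probes that can match more than 1 transcript. Signals of HLA-B and HLA-C can therefore not be assigned to 1 heavy chain gene with certainty.

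Jurkat cells derive from a T cell acute lymphoblastic leukemia and K562 cells, which have erythroid features, from a chronic myeloid leukemia. In each line 1 array was made from control cells, 1 from cells with the ZFX hairpin 381 and 1 from cells with the ZFX hairpin 1012, so that there were 6 arrays in 4 groups. The hairpins were delivered by lentivirus, infected cells were sorted by fluorescence, and all cells were then grown like the parental line, with no other treatment named in the labels. Each array held RNA pooled from 3 replicates. The protocol and the design text name a control hairpin vector, shNC, whereas the sample labels call the control cells normal. If the controls carried no vector, infection and sorting cannot be told apart from silencing. Both hairpins carry the number 1 in the labels, so they are named by their identifiers. The values are deposited intensities, called signals below, and a log2 difference is one of log2(signal + 16.9).

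All 4 probe sets of ZFX were lower on every silenced array than on the control array of the same line. The brightest read 498, 337 and 119 on the Jurkat control, 381 and 1012 arrays, and 719, 236 and 289 on the K562 ones. All 10 T cell marker genes were lower in K562 than in Jurkat, and 6 of 7 measured erythroid marker genes were higher. Arrays of the same line correlated over probe sets at 0.976 to 0.982, and arrays of different lines at 0.718 to 0.738.

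MHC class I molecules present peptides from the inside of the cell to CD8+ T cells. A heavy chain pairs with beta-2-microglobulin, the product of B2M, and is filled in the endoplasmic reticulum with peptides that the proteasome makes and the TAP transporter brings in. Tapasin holds the empty molecule at the transporter. NLRC5 is the transactivator of class I genes and CIITA that of class II genes, and interferons and NF-kB raise class I transcription. HLA-E is a class I molecule read by natural killer cells. K562 is widely used as a target of natural killer cells because it displays little class I.

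The stretch of 180 bases before the transcription start is shown for the 6 genes that the RefSeq promoter table (GRCh38.p14) holds, because class I promoters are known to be driven by interferon-responsive and NF-kB sites close to the start. They include genes that differed between the lines and genes for which no difference was found. HLA-E, NLRC5 and CIITA are named only. Capitals mark matches, on either strand, to an interferon-type motif (GAAANNGAAA or GAANNGAAA) or a kappaB-type motif (GGGNNTNNCC), and overlapping matches were joined into 1 run.
HLA-B, chr6:31357180-31357359, minus strand: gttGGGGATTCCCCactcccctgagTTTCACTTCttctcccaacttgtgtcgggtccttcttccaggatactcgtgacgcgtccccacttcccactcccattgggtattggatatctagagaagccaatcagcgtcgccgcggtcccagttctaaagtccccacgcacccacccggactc
HLA-C, chr6:31272093-31272272, minus strand: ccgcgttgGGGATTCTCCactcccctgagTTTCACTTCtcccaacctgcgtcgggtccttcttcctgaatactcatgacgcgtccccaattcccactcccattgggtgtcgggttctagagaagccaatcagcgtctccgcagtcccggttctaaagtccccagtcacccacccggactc
B2M, chr15:44711337-44711516, plus strand: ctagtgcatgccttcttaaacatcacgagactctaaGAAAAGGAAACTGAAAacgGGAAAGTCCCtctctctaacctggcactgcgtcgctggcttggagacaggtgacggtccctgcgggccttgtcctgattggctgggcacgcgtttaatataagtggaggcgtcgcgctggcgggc
TAP1, chr6:32853705-32853884, minus strand: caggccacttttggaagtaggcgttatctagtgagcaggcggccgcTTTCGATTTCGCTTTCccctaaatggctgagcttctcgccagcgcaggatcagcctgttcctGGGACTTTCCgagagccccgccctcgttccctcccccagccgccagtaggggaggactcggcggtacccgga
TAP2, chr6:32838740-32838919, minus strand: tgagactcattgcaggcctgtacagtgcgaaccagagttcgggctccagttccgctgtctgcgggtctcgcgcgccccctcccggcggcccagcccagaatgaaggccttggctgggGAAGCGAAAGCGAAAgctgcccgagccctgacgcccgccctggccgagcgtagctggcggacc
TAPBP, chr6:33314079-33314258, minus strand: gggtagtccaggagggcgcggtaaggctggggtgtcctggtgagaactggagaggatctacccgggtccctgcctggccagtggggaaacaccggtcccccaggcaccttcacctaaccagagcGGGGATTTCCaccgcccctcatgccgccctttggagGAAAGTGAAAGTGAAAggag

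The interferon-type motif occurred in 6 of the 6 stretches, and in 9.08% of all 35116 promoter windows of 250 upstream bases in the table. The letters were chosen with these promoters in view. A shorter form alone, GAANNGAAA, was searched first and occurred in 3 of the 6 (HLA-B, HLA-C and TAP2), against 6.56% of all windows, and the second form was then added. The kappaB-type motif occurred in 5 of the 6, TAP2 being without a match, and in 19.7% of all windows. In HLA-B and HLA-C the runs began 155 and 151 bases before the start, with the kappaB-type run 177 and 172 bases before it. In TAPBP the interferon-type run lay nearest to the start, 20 bases before it. The HLA-B and HLA-C stretches were identical in 161 of 184 aligned columns (87.5%), while all other pairs had between 41.3% and 49.7%. A match is a string of letters and not a measured binding site.

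The first comparison asked where the genes stand in the 2 lines. HLA-B, HLA-C, TAP1 and NLRC5 were much lower in K562 than in Jurkat on all 3 arrays, B2M was slightly lower, and for HLA-E, TAP2 and TAPBP the brightest probe set did not pass the test. Of the 25 probe sets 20 passed the filter on dim signals, for 8 of the 9 genes. Of these 20, 13 were lower in K562 (limma, adjusted p below 0.05), against 26.6% of all 27278 probe sets tested, and 0 were higher, against 24.1%. With 1 probe set per gene 5 of 8 genes were lower, against 30.4% of 11776 genes, and 0 were higher, against 26%. A probe set that is dim in K562 could pass the filter through its Jurkat signal alone, so these counts describe the probe sets and do not support a shift of the group. The median log2 difference was -0.93 over the 20 and -0.01 over all probe sets tested. Each line is 1 cell line, so the comparison describes these cells, and in bulk RNA fewer expressing cells and less RNA per cell cannot be told apart.

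**Figure D1:**
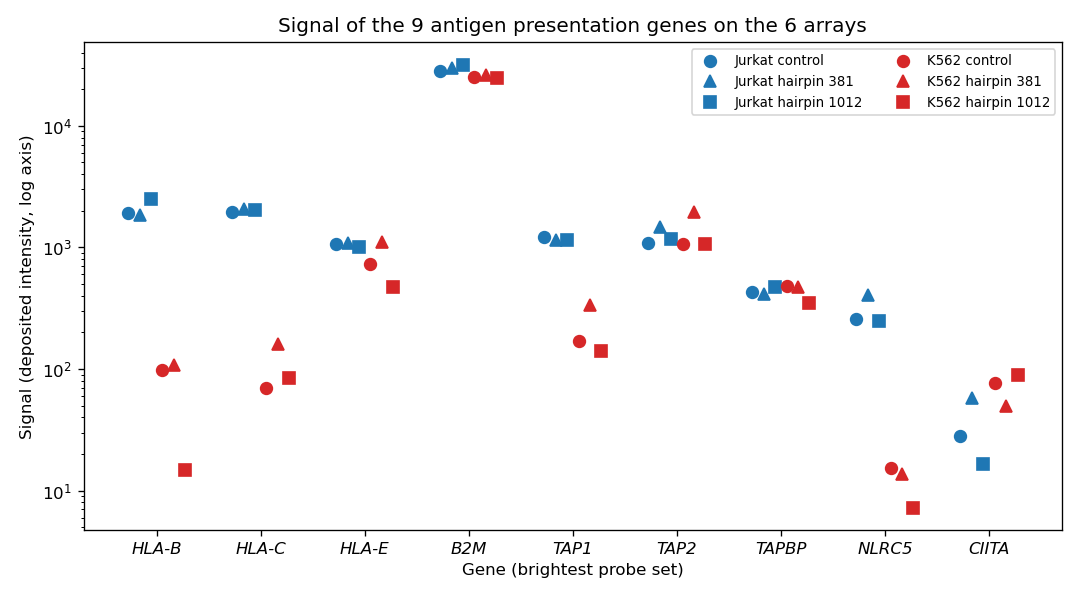
Deposited signal on a log axis for the brightest probe set of each of the 9 genes, by array; circles are control, triangles hairpin 381 and squares hairpin 1012, with Jurkat in blue and K562 in red. HLA-B, HLA-C, TAP1 and NLRC5 separate by line, B2M lies near the top in both, and CIITA stays at or below 90.0; levels of different genes are not comparable.

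The classical heavy chains HLA-B and HLA-C were lower in K562 with all 7 of their probe sets. The brightest HLA-B probe set read 1917, 1843 and 2507 on the Jurkat arrays (control, hairpin 381, hairpin 1012, the order kept below). The K562 arrays gave 97.9, 108 and 14.7. The K562 signal was 3.53% of the Jurkat signal (73.6 ± 51.4 against 2089 ± 364, SD, n = 3 arrays), and the lines did not overlap. The log2 difference was -4.76 ± 0.45 (SE), 27.1-fold lower in K562 (limma adjusted p = 3.91e-05). It was -5.11 and -4.00 with a pseudocount 4 times smaller and larger, so the size of the fold depends on the pseudocount. Without the K562 hairpin 381 array it was -5.42 and without the K562 hairpin 1012 array -4.10, past the threshold in both cases. The other HLA-B probe sets gave -3.09 ± 0.40 and -3.69 ± 0.26, and both passed, the latter with K562 signals below the pseudocount, which sets its size.

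For HLA-C the brightest probe set read 1944, 2085 and 2017 on the Jurkat arrays. On the K562 arrays it read 69.9, 162 and 84.9. The lines did not overlap. K562 was 17.4-fold lower (log2 -4.12 ± 0.24, adjusted p = 2.39e-06), and the other HLA-C probe sets gave -4.14, -3.09 and -2.33, all past the threshold. The last of these had K562 signals of 10.4 to 27.8, near the pseudocount, on which its size depends. HLA-B and HLA-C were thus both far lower in K562, within the limit on telling their probes apart.

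HLA-E behaved differently. Its brightest probe set read 1073, 1080 and 1004 in Jurkat and 731, 1104 and 472 in K562. The K562 array with hairpin 381 was the highest of the 6, so the lines overlapped. The difference was -0.53 ± 0.29 and did not pass (adjusted p = 0.169). Without the K562 hairpin 381 array it was -0.92, and without the K562 hairpin 1012 array -0.13. A second probe set, with 709, 705 and 581 in Jurkat and 288, 395 and 315 in K562, did not overlap and passed at -0.97 ± 0.20 (adjusted p = 0.00352), and another gave -0.51 ± 0.29 (adjusted p = 0.176). HLA-E probe sets thus differed in the call, although all lay on the same side.

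B2M, whose product is shared by all class I molecules, was among the bright genes of both lines. Its brightest probe set read 28503, 30100 and 31911 in Jurkat and 24980, 26205 and 24894 in K562. The lines did not overlap, but the K562 mean was still 84.1% of the Jurkat mean (log2 -0.25 ± 0.07, adjusted p = 0.0178). A second bright probe set gave -0.26 ± 0.07 (adjusted p = 0.0180), and a dim one, between 121 and 326, gave -0.89 ± 0.22 (adjusted p = 0.0102). The call on the brightest B2M probe set was lost without the filter on dim signals (adjusted p = 0.113), without the intensity trend (0.251), without the Jurkat hairpin 1012 array (0.0945) and on the control arrays alone (0.292).

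TAP1 and TAP2 form the peptide transporter together, and their signals stood differently in the lines. TAP1 read 1208, 1155 and 1161 in Jurkat and 170, 337 and 141 in K562, without overlap. K562 was 5.45-fold lower (log2 -2.45 ± 0.29, adjusted p = 0.000174). TAP2 read 1092, 1479 and 1165 in Jurkat and 1060, 1971 and 1076 in K562 on its brightest probe set. The lines overlapped, with a difference of 0.09 ± 0.24 (adjusted p = 0.795). A second TAP2 probe set gave -0.16 ± 0.22 (adjusted p = 0.560), and the remaining 2 were below the filter at signals between 4.33 and 100. The difference between TAP1 and TAP2 was not itself tested.

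TAPBP, the bridge between transporter and heavy chain, read 428, 417 and 476 in Jurkat and 482, 475 and 352 in K562. The lines overlapped, and the difference was -0.02 ± 0.20 (adjusted p = 0.931). Its sign turned under both other normalizations, to 0.07 and 0.11, so no direction can be given. The other TAPBP probe sets were dim, between 34.0 and 88.7, and gave 0.41 ± 0.29 and -0.06 ± 0.29.

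NLRC5, the class I transactivator, read 256, 405 and 249 in Jurkat cells. In K562 cells it read 15.3, 13.8 and 7.21, all below the pseudocount of 16.9. The lines did not overlap, and the log2 difference was -3.44 ± 0.29 (adjusted p = 2.05e-05). Its size is set by the pseudocount, with -2.19 and -4.24 at one 4 times larger and smaller, so no fold is given. CIITA, the class II transactivator, did not pass the filter with any of its 3 probe sets. Its brightest read 27.9, 57.7 and 16.6 in Jurkat and 76.3, 49.2 and 90.0 in K562, with overlap, and the other CIITA probe sets read between 3.34 and 32.0. These signals are too dim for a level to be given.

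**Figure D2:**
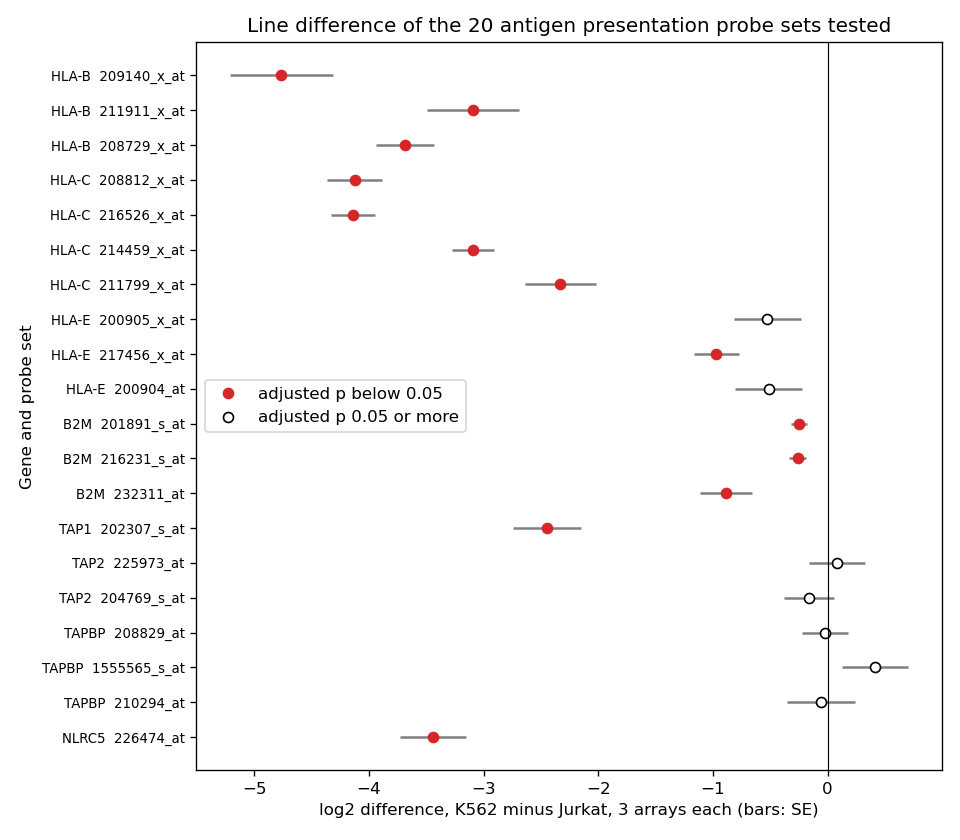
Log2 difference of K562 minus Jurkat (3 arrays each, horizontal axis) for the 20 probe sets tested, with bars for the SE; filled points passed at an adjusted p below 0.05. The HLA-B, HLA-C, TAP1 and NLRC5 points lie between -4.76 and -2.33, and those of HLA-E, B2M, TAP2 and TAPBP between -0.97 and 0.41.

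Across the 6 arrays HLA-B, HLA-C, TAP1 and NLRC5 were ordered alike by line. Their log2 values correlated with each other at Pearson's r between 0.960 and 0.988 over 6 arrays, whereas TAP2 correlated with them at -0.06 to 0.11. B2M, despite its small line difference, correlated with them at 0.914 to 0.938, HLA-E at 0.649 to 0.788 and TAPBP at 0.114 to 0.336. These values are descriptions over 6 arrays that fall into 2 lines and share their controls. The genes most similar to HLA-B among 11775 others were FES, OSBPL1A, ZNF827, NCBP3 and TMEM123 (r between 0.9975 and 0.9997). Such likeness was common, since 20.9% of genes reached 0.9 with HLA-B. For TAP1 they were MYORG, FGD3, TLX2, HAR1A and ACKR3 (0.9971 to 0.9992, with 20.0% of genes above 0.9), and for B2M PRSS3, ID3, PFKP, NT5E and HTR7P1 (0.990 to 0.991, with 12.0%). HLA-E stood closest to SENP3, CYP27B1, UPF1, FAHD2CP and CDPF1 (0.981 to 0.987), and 0.764% of genes reached 0.9 with it. These 5 genes were picked for that likeness, so their low point on the K562 hairpin 1012 array, shared with HLA-E, follows from the choice. UPF1, an RNA helicase of nonsense-mediated decay, read 977, 948 and 953 in Jurkat and 806, 939 and 570 in K562.

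The second comparison asked whether silencing of ZFX changed the genes. No probe set of the 20 passed in Jurkat cells, in K562 cells, in the average of both lines or in the test of whether the lines differ (limma; lowest adjusted p 0.999, 0.998, 0.865 and 0.9997). In each of these tests 0% of all 27278 probe sets passed, ZFX included. At an unadjusted p below 0.05 the count was also 0 of 20 in each, against 987, 1312, 1605 and 726 of all probe sets. With 1 control array per line the spread came from the 2 hairpins, so the absence of calls does not show that levels were equal.

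By size alone, 0 of the 20 lay at least 1.5-fold above the control with both hairpins in Jurkat, where 2.49% of all probe sets did, and 0 lay that far below, where 2.04% did. In K562 the counts were 0 above, against 2.88%, and 0 below, against 3.01%. On all 4 silenced arrays 5 of 20 lay above their control and 2 below, against 12.9% and 14.3% of all probe sets. The median log2 difference from control was 0.01 on each Jurkat array, 0.26 on the K562 array with hairpin 381 and -0.12 on that with hairpin 1012.

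In Jurkat cells the brightest probe sets of HLA-C, HLA-E and TAP1 stayed near control with both hairpins. HLA-C differed by 0.10 and 0.05 (log2, hairpins 381 and 1012), TAP1 by -0.06 and -0.06, HLA-E by 0.01 and -0.10, and HLA-B by -0.06 and 0.38. B2M differed by 0.08 and 0.16, and the brightest TAP2 probe set by 0.43 and 0.09. Some other probe sets lay further from control, in either direction. An HLA-B one read 0.46 and 0.33, an HLA-C one -0.34 and -0.15, and another HLA-C one 0.01 and -0.43. The dim B2M one read -0.34 and -0.38, and the second TAP2 one 0.16 and 0.65. NLRC5 read 0.63 with hairpin 381 and -0.04 with hairpin 1012, so 1 array stood apart. It was the single probe set of the 20 at least 1.5-fold above both other arrays of the line on the Jurkat hairpin 381 array, on the scale with the pseudocount, against 1.93% of all. In ratios of signals 2 of 20 met this, the other being a dim TAPBP probe set, against 2.88% of all.

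In K562 cells the hairpins pointed apart for several genes. HLA-B read 0.13 with hairpin 381 and -1.86 with hairpin 1012 (fitted mean -0.87 ± 0.67, adjusted p = 0.998). The signal with hairpin 1012 was 14.7, below the pseudocount, on which the size of -1.86 depends. HLA-E read 0.58 and -0.61 (-0.02 ± 0.44, adjusted p = 0.998), and TAP1 0.93 and -0.24 (0.34 ± 0.44, adjusted p = 0.998). HLA-C read 1.04 and 0.23 (0.64 ± 0.36, adjusted p = 0.998) and TAP2 0.88 and 0.02, on their brightest probe sets. B2M read 0.07 and -0.01. Other probe sets mostly did not follow: HLA-C ones read 0.10 and -0.17, -0.12 and -0.34, and -0.41 and 0.30, and the second TAP2 one 0.20 and -0.23. The other HLA-B ones read 1.66 and -0.06, and 0.32 and 0.10. An HLA-E one followed, at 0.57 and -0.51, while another read 0.44 and 0.12. With the mean of the HLA-C probe sets the fitted difference was 0.08 in place of 0.64. For none of these genes was the mean larger than the gap between the hairpins.

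**Figure D3:**
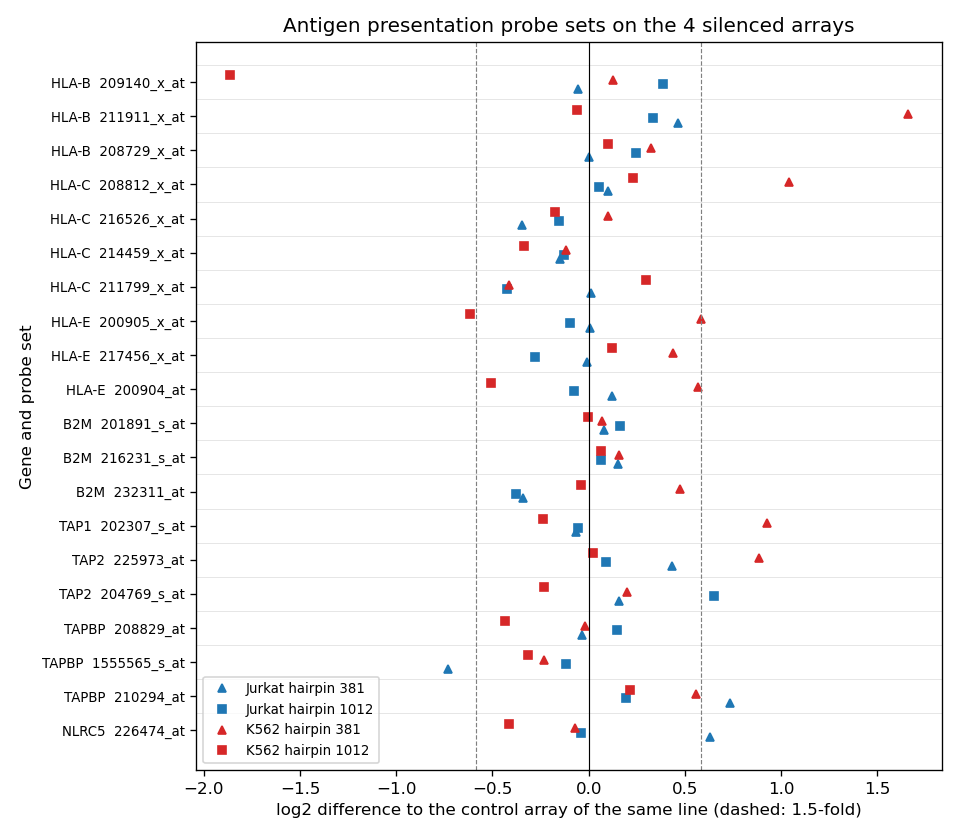
Log2 difference of each silenced array from the control array of its line (horizontal axis) for the 20 probe sets tested; triangles are hairpin 381, squares hairpin 1012, Jurkat in blue and K562 in red, and dashed lines mark 1.5-fold. In K562, 15 of 20 lie above 0 with hairpin 381 and 7 of 20 with hairpin 1012.

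Compared directly, with the cell line as a block, hairpin 1012 and hairpin 381 differed for 0 of the 20 probe sets, against 0.77% of all probe sets (limma; lowest adjusted p 0.189, for TAP2 at -0.60 ± 0.18). At an unadjusted p below 0.05 there were 4 of 20, or 20%, against 12.7% of all. HLA-B gave -0.77 ± 0.47 (adjusted p = 0.546) and HLA-E -0.65 ± 0.24 (adjusted p = 0.289). The HLA-B difference turned to 0.39 without the K562 hairpin 1012 array, and it was -1.94 without the Jurkat hairpin 1012 array. In the latter case hairpin 1012 was read in K562 cells alone, where the HLA-B signal of 14.7 lay below the pseudocount. A second HLA-B probe set was also lower in K562 with hairpin 1012 than with hairpin 381 (17.9 against 97.7), but its K562 control read 19.3, so there hairpin 381 stood apart from the control rather than hairpin 1012. The remaining HLA-B probe set read 7.03, 13.0 and 8.80 on the K562 arrays, all below the pseudocount.

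A size rule chosen after the values were seen counted probe sets at least 1.5-fold above both other K562 arrays on the array with hairpin 381, on the scale with the pseudocount. It held for 4 of 20, against 2.16% of all probe sets, and the opposite held for 0, against 3.01%. The 4 were TAP1, the brightest TAP2 and HLA-C probe sets and 1 HLA-B probe set. In ratios of signals 6 of 20 met the rule, against 3.11% of all, the other 2 being HLA-E probe sets. In signals, the array with hairpin 381 was 1.99 times the K562 control for TAP1, 1.86 times for the brightest TAP2 probe set and 2.31 times for the brightest HLA-C probe set. Other probe sets of these genes differed from that: the remaining HLA-C ones gave 1.08, 0.914 and 0.534 times, and the second TAP2 one 1.15 times. By the brightest probe set 6 of the 8 measured genes were highest on this array among the K562 arrays, against 33.5% of all genes. There is 1 such array, so no test can be attached.

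The immunoproteasome, which replaces catalytic subunits of the standard proteasome and makes peptides suited to class I, was highest on the same array. PSMB8 read 42.5, 228 and 37.6 on the K562 control, hairpin 381 and hairpin 1012 arrays, PSMB9 94.0, 359 and 117, PSMB10 1668, 2148 and 1743, and the activator subunit PSME1 1707, 2776 and 2018. All 4 measured genes of the list were highest with hairpin 381. Over all genes 33.5% were highest there, the share to hold beside each such count in this paragraph. Of the constitutive subunits 1 of 3 was highest there, PSMB6 by little, at 8801, 8867 and 8765, while PSMB5 read 10619, 9795 and 10105 and PSMB7 16492, 16371 and 15581. Of the 13 interferon and NF-kB regulators 3 were highest and 4 lowest on this array. IFNAR1, a receptor chain for type I interferon, read 442, 678 and 476, and the interferon-induced activator IRF1 166, 100 and 161. The summed signal of the 10 T cell markers was 1867, 1733 and 1124 on the 3 K562 arrays, against 57474 to 63879 on the Jurkat arrays, and CD3D made up most of the K562 sum (1612, 1489 and 956). Of the 10 markers 4 were highest with hairpin 381 and 1 was lowest. CD3G read 56.3, 69.4 and 8.75, whereas LCK read 32.7, 5.40 and 5.28 and CD28 23.6, 3.92 and 2.62, each partly below the pseudocount. The summed signal of the 7 erythroid markers was 66419, 51830 and 48080, and 1 of the 7 was highest with hairpin 381. The embryonic globin gene HBZ, at 24148, 11085 and 9262, made up most of the fall in the sum. HBE1, the brightest of the 7, read 30384, 30115 and 28326. The part of these markers in the values above was not tested.

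**Figure D4:**
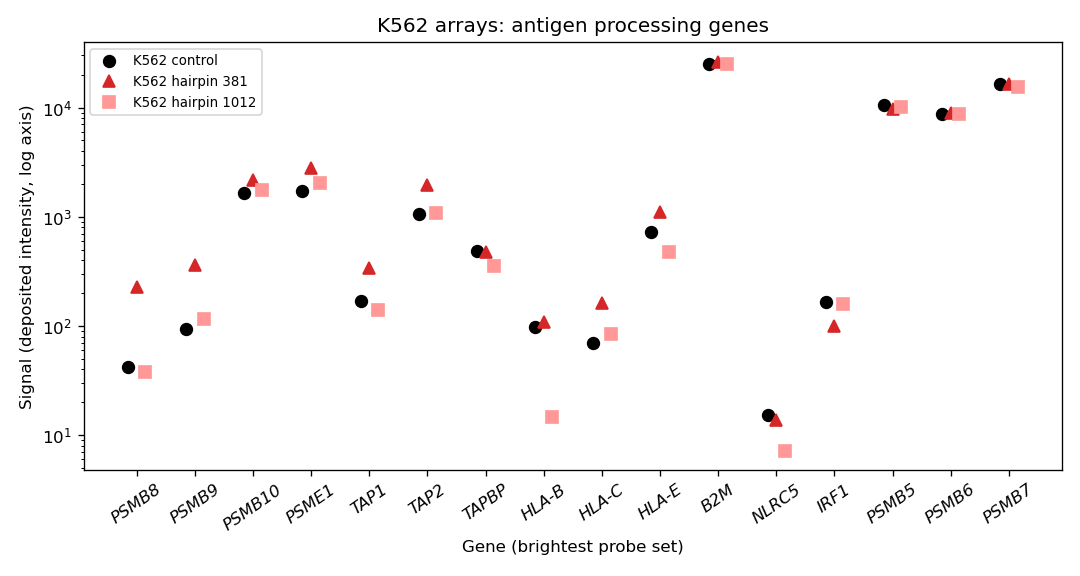
Deposited signal on a log axis on the 3 K562 arrays (black control, red hairpin 381, pink hairpin 1012) for immunoproteasome genes, the 8 measured antigen presentation genes, IRF1 and the constitutive subunits PSMB5, PSMB6 and PSMB7. PSMB8, PSMB9, TAP1, TAP2, HLA-C and HLA-E are highest with hairpin 381, while IRF1 is lowest there; PSMB5, PSMB6 and PSMB7 differ little between the arrays.

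The rest of the pathway was read from gene lists, each gene by its brightest probe set, against the shares of 30.4% lower and 26% higher in K562 over all genes. Here too a gene that is dim in 1 line could pass the filter through its signal in the other line alone. The counts below therefore describe the listed genes and do not support a shift of a list. Of the 4 measured immunoproteasome genes 3 were lower in K562: PSMB8 at -5.38 ± 0.47 (-6.10 without the K562 hairpin 381 array and -4.66 without the K562 hairpin 1012 array), PSMB9 at -3.82 ± 0.35 and PSME1 at -1.87 ± 0.16 (adjusted p at most 3.24e-05). PSMB10 lay at -0.06 ± 0.16 and did not pass. Of the constitutive subunits PSMB5 was higher in K562 (0.69 ± 0.11, adjusted p = 0.00101), and the other 2 of 3 did not pass. TAP1 and PSMB9, which share a divergent promoter, were both lower in K562.

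Among 8 genes of peptide trimming and folding 4 were lower in K562 and 2 higher. The higher ones, named after their values were seen, were CANX (0.66 ± 0.09, adjusted p = 0.000363) and PDIA3 (0.66 ± 0.10, adjusted p = 0.000787). ERAP1 was counted as lower (-1.01 ± 0.20), but only 1 of its 3 other probe sets tested lay on the same side. ERAP2, an aminopeptidase that trims peptides in the endoplasmic reticulum, read 2557 to 3599 in Jurkat and 73.1 to 107 in K562 (-4.85 ± 0.20, adjusted p = 3.57e-07). TAPBPL, a tapasin-like peptide editor, was lower by -1.53 ± 0.26 on the log2 scale (adjusted p = 0.00119). The chaperone genes HSP90B1 and HSPA5 did not pass, at -0.33 ± 0.15 and 0.29 ± 0.12.

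Of 14 measured genes of other class I and class I-like molecules 9 were lower in K562 and 2 higher. The lower ones included all 5 CD1 genes, whose products present lipids. CD1E read 8646 to 12664 in Jurkat and 7.22 to 31.2 in K562, CD1D 3311 to 4790 and 3.64 to 30.6, CD1B 1732 to 2020 and 5.15 to 11.6, and CD1A 2917 to 3740 and 23.5 to 34.7. The K562 signals of these 4 genes lay near or below the pseudocount, which sets the size of a fold, so none is given. The 2 higher genes, named after their values were seen, were MICA, a stress ligand of the natural killer receptor NKG2D (2.06 ± 0.19, adjusted p = 3.71e-05), and PROCR (1.57 ± 0.26, adjusted p = 0.00124). MICA read 287 to 373 in Jurkat and 1277 to 1482 in K562, without overlap. Other NKG2D ligand genes of the list, also named after their values were seen, did not follow MICA. ULBP2 was lower in K562 (-3.44 ± 0.22, adjusted p = 3.70e-06), and MICB did not pass (-0.07 ± 0.13, adjusted p = 0.668).

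Of 7 measured class II pathway genes 3 were lower in K562 and 1 higher. LGMN, a lysosomal protease, lay at -4.65 ± 0.41 and HLA-DOA at -2.35 ± 0.33, while the protease gene CTSS was higher (1.60 ± 0.25, adjusted p = 0.000814) and HLA-DMB did not pass (0.13 ± 0.39). LGMN was also highest with hairpin 381 among the K562 arrays, at 8.40, 59.2 and 6.29, and the K562 signals of LGMN and HLA-DOA lay partly below the pseudocount, on which their sizes depend. Of 7 measured genes of the factors that bind MHC promoters together with NLRC5 or CIITA 5 were lower and 1 higher. RFX5 lay at -1.83 ± 0.18, RFXAP at -1.69 ± 0.17 and NFYA at -1.44 ± 0.22, and NFYC did not pass (-0.50 ± 0.19, adjusted p = 0.0563).

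Of 13 measured interferon and NF-kB regulators 6 were lower in K562 and 2 higher. The transcription factor genes IRF1 and IRF8 lay at -1.89 ± 0.22 and -2.18 ± 0.34 (adjusted p = 0.000160 and 0.000844), and the interferon receptor genes IFNAR1 and IFNAR2 at -0.97 ± 0.22 and -1.51 ± 0.18. Of the 3 other IFNAR1 probe sets tested only 1 lay on the same side, so the IFNAR1 direction holds for the brightest one and not for the gene. The 2 other IFNAR2 probe sets both lay on the same side. IRF1 read 538 to 590 in Jurkat and 100 to 166 in K562. Of 6 genes of repressive chromatin and DNA methylation 2 were lower and 1 higher, with HDAC1 at -0.70 ± 0.11, EED at 0.45 ± 0.10, and EZH2, at 0.30 ± 0.12, not past the threshold (adjusted p = 0.0648).

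In the silencing contrasts 0 of the 62 measured genes of these 8 lists passed in either line, in the average or in the interaction (limma), as for all genes. At an unadjusted p below 0.05 the counts were 2 in Jurkat, 3 in K562, 5 in the average and 2 in the interaction, or 3.23%, 4.84%, 8.06% and 3.23%, against 3.86%, 5.38%, 6.56% and 2.79% of all genes, so they lay near the background. By p the nearest in the average contrast were HSP90B1 (0.46 ± 0.16, unadjusted p = 0.0216), CD1E (-0.60 ± 0.22, unadjusted p = 0.0234) and IFNAR1 (0.59 ± 0.23, unadjusted p = 0.0323), each with an adjusted p of 0.830. PSMB9 lay above its control on all 4 silenced arrays, at 1940, 2942 and 2705 in Jurkat and 94.0, 359 and 117 in K562, with an average difference of 0.78 ± 0.37 (adjusted p = 0.830).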

How the data were processed

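Expression was measured on 6 Affymetrix arrays, each with RNA pooled from 3 replicates. The authors deposited linear intensities for each probe set, and the submitters' processing notes name MAS5 as the tool, without settings. The intensities had a 2% trimmed mean of 499.9 on every array. Gene names came from the platform annotation, in which 41097 had 1 symbol, 1801 several and 11777 none.

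Tests ran on log2(signal + 16.9), where 16.9 is the 25th percentile of all values. Without the 62 array controls, 27278 probe sets whose mean log2 value exceeded the median, a signal of 54.5, were tested with limma 3.58.1 (R 4.3.3). The fit took the 6 arrays as 4 groups with an intensity trend (2 residual and 6.33 prior degrees of freedom). The line contrast took the mean of the 3 arrays of each line, and hairpins were compared with the line as a block. Two-sided p-values were adjusted by Benjamini-Hochberg over all probe sets, with a threshold of 0.05. In the fit of 4 groups the error is the spread between the hairpins, with control arrays assumed to vary alike. In the hairpin comparison the error is what line and hairpin, added together, leave over on the 6 arrays, controls included. That fit had 2 residual and 8.26 prior degrees of freedom. The fits were tested on simulated data. The alternatives were other pseudocounts, filters, normalizations, units of the fit, left-out arrays, a replicate block and the control arrays alone.

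The brightest probe set stands for a gene. Per list, up to 4 genes were named by rule: those of smallest p in the average contrast, then those of largest line difference. Some others were named after their values were seen. Genes of similar pattern were the 5 with the highest correlation. The genes, lists and rules were chosen with earlier results of these data known. The number of arrays limits the precision.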

Additional observations from a re-analysis of the deposited data

How the results depend on the processing

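The direction and the call of the line difference held under every alternative run for HLA-B, HLA-C, TAP1 and NLRC5. The adjusted p reached at most 0.00500 for HLA-B, 0.000328 for HLA-C, 0.00464 for TAP1 and 0.00228 for NLRC5. The cause of the changes below was not tested, except that stricter filters and fits per gene test fewer features.

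Of the 20 probe sets 13 were lower in K562, and 8 when the filter was set at the 75th percentile, which tested fewer. Over all probe sets 13820 differed between the lines, 7419 with that filter, 6645 with the brightest probe set per gene, 6569 with the mean per gene and 7698 on the control arrays alone. Between the hairpins 210 passed, 130 with a pseudocount 4 times smaller, 126 without a filter, 338 with the 75th percentile, 110 with the brightest probe set, 16 with the mean per gene, 0 without the intensity trend, and 38 to 269 without 1 array. Among the 20 probe sets 0 to 1 passed without 1 array. Over all probe sets 0 passed in K562 silencing, with 0 to 4 without 1 array (3 without the hairpin 381 array of K562 and 4 without its hairpin 1012 array), and 0 in the average, with 0 to 9 (9 without the K562 hairpin 381 array).

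The silenced arrays of the lines share hairpin identifiers, and no source ties their cultures together. The hairpin differences of the lines correlated at r = 0.18 over probe sets. With the replicate block 9 probe sets passed in the average contrast and 0 in each line and the interaction, 0 of the 20 passed in either line, and HLA-E passed in the line contrast (-0.53, adjusted p = 0.0408).

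HLA-E also passed with the mean of its probe sets (-0.67, adjusted p = 0.0453). Signs turned in the following cases, none of them past the threshold. With the mean of probe sets HLA-B was 0.048 in K562 silencing and 0.14 in the average, HLA-C -0.13 in Jurkat and -0.025 in the average, HLA-E 0.10 in K562 and 0.021 in the average, B2M -0.043 in Jurkat, 0.16 in the interaction and -0.12 between hairpins, TAP2 -0.11 in the interaction and -0.040 between lines, and TAPBP 0.11 between lines. With quantile normalization HLA-E was -0.0014 in the interaction and TAPBP 0.11 between lines, and with cyclic loess TAPBP was 0.074. With a pseudocount 4 times smaller NLRC5 was -0.067 in the average. On the control arrays alone TAP2 was -0.042 and TAPBP 0.17, and other probe sets gave -0.16 for TAP2 and 0.41 for TAPBP.

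Without 1 array in turn, values that crossed 0 ranged in Jurkat silencing from -0.056 to 0.38 for HLA-B, -0.10 to 0.0088 for HLA-E, -0.035 to 0.15 for TAPBP and -0.037 to 0.63 for NLRC5. In K562 silencing they ranged from -1.86 to 0.13 for HLA-B, -0.61 to 0.58 for HLA-E, -0.0050 to 0.069 for B2M and -0.24 to 0.93 for TAP1. In the average they ranged from -0.85 to 0.14 for HLA-B, -0.33 to 0.27 for HLA-E, -0.15 to 0.43 for TAP1, -0.19 to 0.019 for TAPBP and -0.14 to 0.19 for NLRC5. In the interaction they ranged from -0.57 to 0.63 for HLA-E, -0.18 to 0.99 for TAP1 and -0.24 to 0.62 for TAP2. Between lines they ranged from -0.20 to 0.37 for TAP2 and -0.16 to 0.11 for TAPBP, and between hairpins from -1.94 to 0.39 for HLA-B, -0.076 to 0.087 for B2M and -0.41 to 0.18 for TAPBP.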
